A study of Mus musculus with 11 samples.

Results

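Angiogenic factors and the receptors and junction protein of blood vessel endothelium were followed in mouse skin after bone marrow transplant. Genes were taken by symbol from a NanoString panel of myeloid innate immunity: the VEGF and angiopoietin ligands, the neuropilins, and 8 singly named receptors and endothelial surface proteins. The rule found 7 of the 754 genes measured, which were Vegfa, Vegfc, Angpt1, Angpt2, Flt1, Tek and Cdh5. Of the 8 symbols named singly, 3 were found (Flt1, Tek and Cdh5), and Kdr, Flt4, Tie1, Pecam1 and Eng are not analysed here. Skin came from the nape of the neck of 11 female mice, 8 to 10 weeks of age per the methods, collected at week 7 after transplant. All recipients had received 850 cGy of radiation and an intravenous injection of bone marrow cells and splenocytes. The 3 syngeneic and 3 allo-WT recipients were C57BL/6j mice, and the 5 allo-MCd recipients were of strain B6.Cg-KitW-sh/HNihrJaeBsmGlliJ, which carries the W-sh allele of the receptor gene Kit and lacks mast cells. Per the study's methods the donors were LP/J mice for the allogeneic transplants and C57BL/6J mice for the syngeneic one, but the labels name LP/J cells for all 11 mice. The W-sh allele was present in all cells of the host and not only in its mast cells, so a comparison with allo-MCd mice is also one of recipient strains. Allo-WT mice are the model of dermal chronic graft-versus-host disease (cGVHD), and syngeneic mice are the transplant control without it.

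Vascular endothelial growth factors (VEGFs) are secreted ligands that drive the growth and leakiness of vessels. VEGF-A, from Vegfa, signals to blood vessel endothelium, and Flt1 encodes VEGFR1, which binds VEGF-A tightly and can act as a decoy for it. VEGF-C, from Vegfc, is best known as the growth factor of lymphatic vessels. The angiopoietins act on the receptor tyrosine kinase TIE2, encoded by Tek: ANGPT1 is an agonist that steadies vessels, and ANGPT2 is released by activated endothelium and often opposes it. Cdh5 encodes VE-cadherin, the adhesion protein of the junctions between endothelial cells. In skin these vessels supply the dermis and are the route by which leukocytes enter it.

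For the VEGF ligands, the 250 bases before the outermost annotated start of each gene are given here, since both were called lower in allo-MCd skin when it was set against syngeneic skin on the deposited scale. Capitals mark GGAA, the core of the sites that ETS factors bind, or TTCC where it lies on the other strand. The sequences are from RefSeq, build GRCm38.p6, at chr17:46032378-46032627 on the minus strand for Vegfa and chr8:54077282-54077531 on the plus strand for Vegfc.
Vegfa: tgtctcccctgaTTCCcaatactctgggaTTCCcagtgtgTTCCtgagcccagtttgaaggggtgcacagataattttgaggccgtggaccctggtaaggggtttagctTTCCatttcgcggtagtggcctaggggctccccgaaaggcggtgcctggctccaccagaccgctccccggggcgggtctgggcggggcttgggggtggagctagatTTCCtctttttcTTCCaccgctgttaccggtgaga
Vegfc: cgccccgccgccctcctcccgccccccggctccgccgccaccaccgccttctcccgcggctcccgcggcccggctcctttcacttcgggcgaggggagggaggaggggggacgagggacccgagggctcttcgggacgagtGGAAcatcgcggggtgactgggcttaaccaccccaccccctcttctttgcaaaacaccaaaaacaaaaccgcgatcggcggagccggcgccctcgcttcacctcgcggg
The Vegfa window held 6 copies of GGAA and was 59.2% G or C, whereas the Vegfc window held 1 copy and was 71.6% G or C. At least 1 copy on either strand was present in 93.5% of the 32851 RefSeq windows of this length, so its presence sets neither gene apart. ACGTG, the core that hypoxia-inducible factors bind, was in 16.6% of all windows on either strand and in neither of these. A further Vegfa window listed by RefSeq, at chr17:46025164-46025413, held 1 copy of ACGTG and 2 of GGAA. All 7 symbols matched RefSeq. For 4 of the 7 genes a window was listed, and for Cdh5, Angpt1 and Angpt2 none was.

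The deposited values are normalized counts, which the authors scaled in their software, and all 7 genes were above the background in all 11 mice. The lowest value over its background was that of Angpt1, at 2.77 times it, where background is the mean of the negative control probes plus 2 SD. Recovered whole counts of the 7 genes were between 41 and 845 per mouse, so that Angpt1 and Flt1 rested on the fewest molecules and Vegfa on the most. Total counts per mouse were between 831632 and 1460260. Allo-WT mouse 1 had the lowest total, the largest factor between count and value (2.54, with a range from 0.759), and 3975 counts of the strongest positive control against 17615 to 33547 in the others. Kit was above background in all 3 syngeneic mice, in 2 of the 3 allo-WT mice and in none of the 5 allo-MCd mice. The middle gene of the panel stood at 426 normalized counts for syngeneic mice, 501 for allo-WT and 246 for allo-MCd (group medians of the mouse medians). Comparisons are therefore given on the deposited scale and also under median scaling, in which each mouse is set to the same median gene. The panel covers myeloid innate immunity, so its median gene can move with immune cells. Which scale is the truer was not tested. The test was limma on log2(value + 1) over 696 genes, with a gene called at a Benjamini-Hochberg adjusted p of at most 0.05, and every difference is a log2 value on that scale, where low genes move less than their true change. Each member was also given an exact permutation test (two-sided), whose smallest possible p is 0.1 for groups of 3 and 3 mice and 0.0179 for groups of 3 and 5.

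Allogeneic transplant into wild-type mice, set against syngeneic transplant, addresses how the vessel genes stand in skin with cGVHD. On both scales the junction gene Cdh5 and the angiopoietin receptor Tek were lower in allo-WT skin, by 2.66 and 3.07 times on the deposited scale. In whole skin, fewer endothelial cells, a smaller endothelial share of the RNA and less RNA per endothelial cell cannot be told apart. No member was called higher and 2 of 7 were called lower, where 28.3% of all genes were called higher and 14.9% lower. The median difference of the 7 was -0.54 against 0.21 over all genes. Under median scaling Vegfc was called lower as well, giving 0 higher and 3 lower of 7, where 24.0% of all genes were called higher and 26.9% lower, and the medians were -0.78 for the 7 and -0.03 for all genes. All 7 differences were below 0 on either scale, and with 7 genes the shares called are descriptions.

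Allogeneic transplant into mast cell-deficient mice was set against allo-WT. These groups differ in host mast cells, in recipient strain and in disease, and these cannot be told apart. The paper noted no cGVHD in allo-MCd mice. Here the direction of most members turned with the scaling. On the deposited scale Angpt2 was called lower in allo-MCd skin and nothing was called higher (1 and 0 of 7), where 50% of all genes were called lower and 10.9% higher. Under median scaling Cdh5, Tek and Vegfa were called higher and nothing was called lower (3 and 0 of 7), where 37.2% of all genes were called higher and 29.5% lower. The median difference of the 7 was -0.32 against -0.72 over all genes on the deposited scale, and 0.57 against 0.17 under median scaling. Cdh5 and Tek were above 0 on both scales, while Vegfa, Vegfc, Angpt1 and Flt1 were below 0 on the deposited scale and above it under median scaling.

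Allo-MCd skin was also set against syngeneic skin, in which mast cells were present and cGVHD was not. On the deposited scale Angpt2, Vegfc, Tek and Vegfa were called lower (4 of 7) and none higher, where 36.9% of all genes were called lower and 4.60% higher. Under median scaling limma called none of the 7 in either direction, where 16.8% of all genes were called higher and 11.5% lower. The medians were -0.76 for the 7 and -0.59 for all genes on the deposited scale, and -0.10 and 0.06 under median scaling. This comparison and the one before it share the allo-MCd mice, as the comparisons with allo-WT or syngeneic mice share those.

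**Figure D1:**
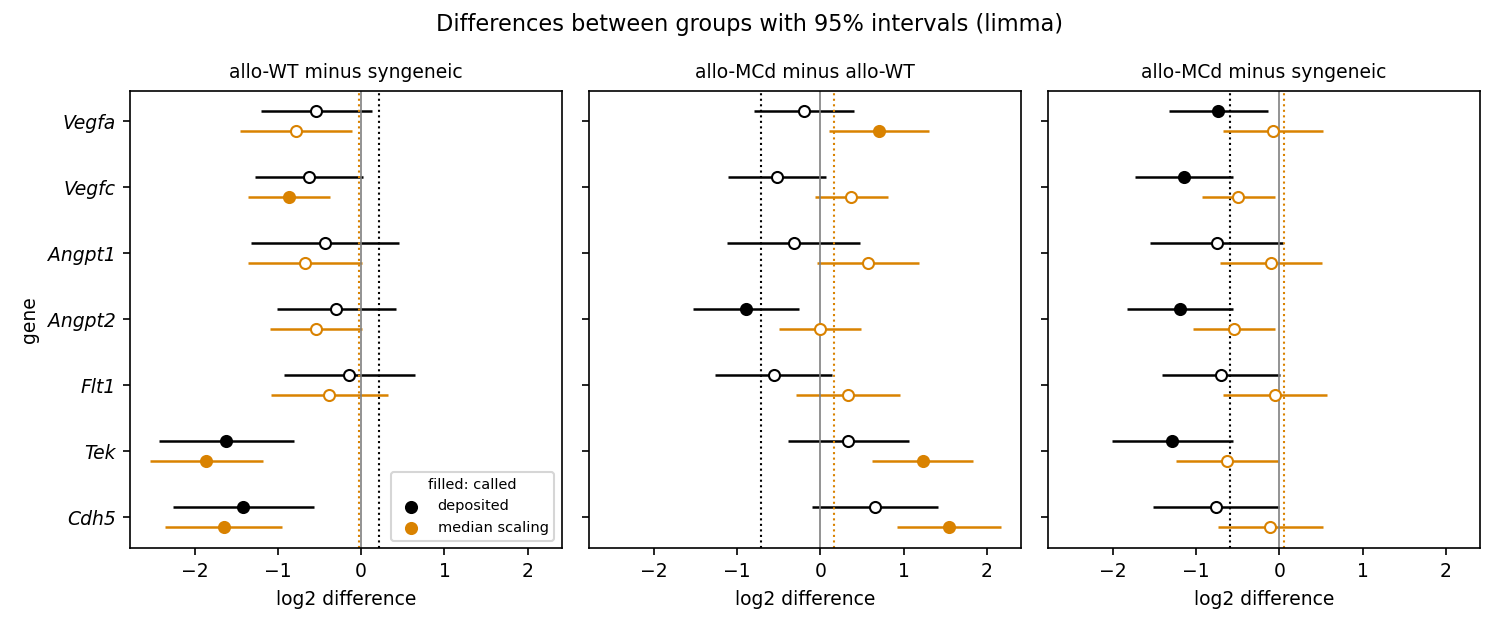
Log2 difference (x axis) of each of the 7 genes in the 3 comparisons, with 95% intervals from limma. Black marks are the deposited scale, orange marks median scaling, filled marks were called, and dotted lines are the median of all 696 genes on the same scale: Tek and Cdh5 lie lowest between allo-WT and syngeneic mice, and in the middle panel the orange marks lie to the right of the black ones.

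Vegfa encodes the main growth factor of blood vessels. Its normalized counts were 969.65, 823 and 932 in syngeneic mice 1 to 3, then 436, 915 and 607 in allo-WT mice 1 to 3. In allo-MCd mice 1 to 5 they were 611, 531, 616, 339.8 and 706. The 3 syngeneic mice lay close together, allo-WT mouse 2 lay among them and the other allo-WT mice below them, and all 5 allo-MCd mice lay below every syngeneic mouse. Means were 908 ± 76.0 (SD, n = 3), 653 ± 243 (SD, n = 3) and 561 ± 138 (SD, n = 5). Only the difference between allo-MCd and syngeneic mice was called on the deposited scale, at -0.73 ± 0.27 (SE, limma adjusted p = 0.0482, exact permutation p = 0.0179). That call sat at the threshold: it was lost without any 1 of syngeneic mice 1, 2 or 3, allo-WT mouse 3 or allo-MCd mice 1, 2, 3 or 4, with limma adjusted p-values from 0.0521 to 0.136, and under median scaling the difference was -0.077. Between allo-MCd and allo-WT the value was -0.19 (limma adjusted p = 0.552) on the deposited scale and 0.70 (limma adjusted p = 0.0393) under median scaling, where the groups still overlapped. The call under median scaling was lost without allo-WT mouse 1, which had the lowest scaled value of all mice, at 0.38 (limma adjusted p = 0.214). It was also lost without any 1 of syngeneic mouse 3, allo-WT mouse 3 or allo-MCd mice 1, 2, 3 or 5, at 0.61 to 0.70 (limma adjusted p-values from 0.0534 to 0.0858). Between allo-WT and syngeneic mice the differences were -0.54 as deposited and -0.78 under median scaling (limma adjusted p = 0.163 and 0.0514), and the latter was called when mouse 2 of the allo-WT group was left out, at -1.12 (limma adjusted p = 0.00901), or mouse 4 of the allo-MCd group, at -0.78 (limma adjusted p = 0.0411). With mouse 1 of the allo-WT group left out it shrank to -0.46 (limma adjusted p = 0.206), and the deposited value to -0.28 (limma adjusted p = 0.482).

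Vegfc encodes the growth factor best known from lymphatic vessels. It had 287, 174 and 297 normalized counts in syngeneic mice 1 to 3, and 172, 146 and 159.7 in allo-WT mice 1 to 3. Allo-MCd mice 1 to 5 had 101, 87.1, 128, 92.5 and 159. The lowest syngeneic mouse was just above the highest allo-WT mouse, and the allo-MCd mice lay below all syngeneic mice, with mouse 5 among the allo-WT mice. Set against the syngeneic group, allo-MCd mice had 2.21 times less Vegfc (log2 difference -1.14 ± 0.27 SE, limma adjusted p = 0.00575, exact permutation p = 0.0179), and the call held without each mouse in turn. Under median scaling that difference was -0.49 (limma adjusted p = 0.0889), and it was called at -0.69 (limma adjusted p = 0.0355) without syngeneic mouse 2, the lowest of its group. In allo-WT against syngeneic mice the difference was -0.63 on the deposited scale (limma adjusted p = 0.104), and -0.87 (limma adjusted p = 0.0450) without syngeneic mouse 2. Under median scaling it was -0.86 (limma adjusted p = 0.00821), a call kept in every fit that left out a mouse. There the 3 allo-WT values were almost alike, at 114.1, 114.4 and 114.8, below all 5 allo-MCd values of 127 to 168, although that last difference of 0.37 was not called (limma adjusted p = 0.122, exact permutation p = 0.0357). Vegfc was called in opposite directions between allo-MCd and allo-WT mice by different settings: lower without allo-MCd mouse 5 on the deposited scale, at -0.65 (limma adjusted p = 0.0423), against -0.52 (limma adjusted p = 0.113) with it, and higher under quantile normalization, at 0.52 (limma adjusted p = 0.0462).

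Angpt1, the gene of the TIE2 agonist, was called in no comparison on either scale. Its normalized counts were 144, 134 and 161 in syngeneic mice 1 to 3 and 104, 96.7 and 124 in allo-WT mice 1 to 3. In allo-MCd mice 1 to 5 they were 54.7, 61.2, 135, 63.8 and 165. All 3 allo-WT mice lay below all 3 syngeneic mice, while allo-MCd mice fell into a low trio and a pair, mice 3 and 5, at the level of the syngeneic group. The difference between allo-WT and syngeneic mice was -0.44 (limma adjusted p = 0.388), with a 95% interval from -1.33 to 0.46. Without allo-MCd mouse 5 the difference of allo-MCd from syngeneic mice became -0.98 (limma adjusted p = 0.0252), against -0.75 (limma adjusted p = 0.112) with it. Under median scaling it was -0.25 (limma adjusted p = 0.505) without that mouse and -0.10 (limma adjusted p = 0.817) with it.

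Angpt2, the gene of the ligand that activated endothelium releases, was the 1 member called between allo-MCd and allo-WT mice on the deposited scale. Syngeneic mice 1 to 3 had 286, 203 and 324 normalized counts, allo-WT mice 1 to 3 had 215, 174 and 268, and allo-MCd mice 1 to 5 had 108, 105, 138, 75.8 and 175. Allo-WT and syngeneic mice overlapped, all allo-MCd mice lay below all syngeneic mice, and only allo-MCd mouse 5 reached an allo-WT value. The difference of allo-MCd from allo-WT mice was -0.89 ± 0.29 (SE, limma adjusted p = 0.0192, exact permutation p = 0.0536), a fold of 1.86, and without allo-WT mouse 3 it was -0.74 and no longer called (limma adjusted p = 0.0735). By the methods' test this difference had a Tukey p of 0.0485, and was not called after an added adjustment over all genes (adjusted p = 0.0956). Under median scaling it was -0.0028 (limma adjusted p = 0.992), with a 95% interval from -0.50 to 0.49. Against syngeneic mice, Angpt2 was lower in allo-MCd skin by -1.19 ± 0.29 (SE, limma adjusted p = 0.00743, exact permutation p = 0.0179). Under median scaling this was -0.54 (limma adjusted p = 0.0913), with the groups still apart. The median-scaled difference of allo-WT from syngeneic mice was also -0.54 (limma adjusted p = 0.0915), and it was called when mouse 3 of the allo-WT group was left out, at -0.69 (limma adjusted p = 0.0481).

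**Figure D2:**
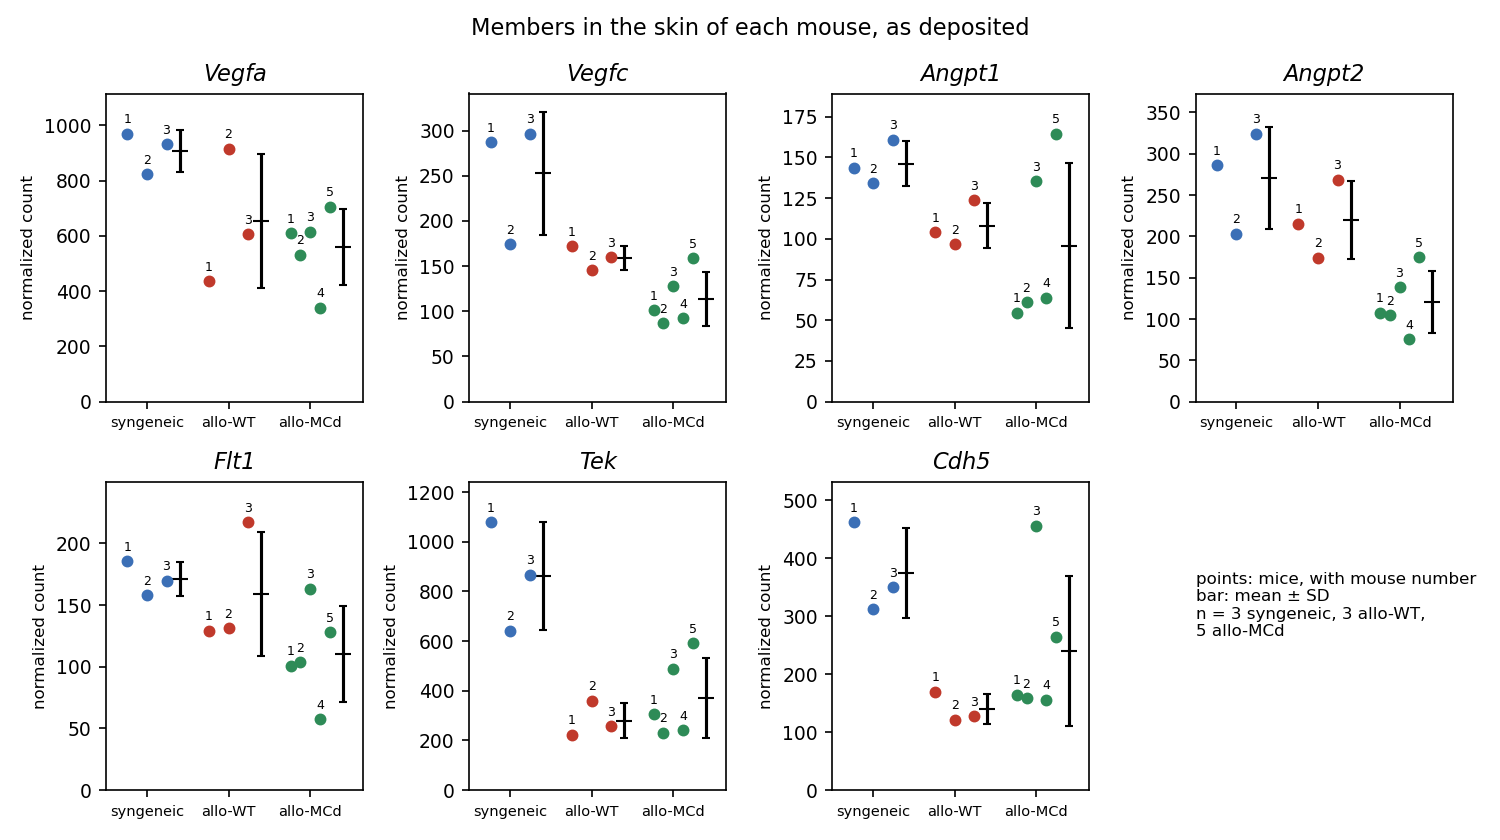
Normalized counts as deposited (y axis, from 0) of the 7 genes in each mouse, with the mouse number above each point and the mean ± SD as a black bar for 3 syngeneic, 3 allo-WT and 5 allo-MCd mice. For Tek and Cdh5 all allo-WT points lie below all syngeneic points, and allo-MCd mice 3 and 5 are the highest of their group in every panel.

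Flt1, the gene of the VEGF-A receptor that can act as a decoy, was called in no comparison on either scale. Its normalized counts were 186, 158 and 169.8 in syngeneic mice 1 to 3, 129, 131 and 217 in allo-WT mice 1 to 3, and 101, 104, 163, 57.4 and 128 in allo-MCd mice 1 to 5. Allo-WT mouse 3 had the highest value of all mice and the other allo-WT mice lay below the syngeneic group, so the groups overlapped. Between allo-WT and syngeneic mice the difference was -0.14 (limma adjusted p = 0.758), with a 95% interval from -0.93 to 0.64. Between allo-MCd and allo-WT mice it was -0.56 (limma adjusted p = 0.154), and 0.33 (limma adjusted p = 0.322) under median scaling. With each mouse left out the latter ran from 0.15 (without allo-WT mouse 1) to 0.58 (without allo-WT mouse 3) and was never called. Without allo-MCd mouse 3 the difference of allo-MCd from syngeneic mice was called, at -0.86 (limma adjusted p = 0.0489), against -0.70 (limma adjusted p = 0.0950) with it. Under median scaling it was -0.17 (limma adjusted p = 0.690) without that mouse and -0.048 (limma adjusted p = 0.911) with it.

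Tek, the gene of the angiopoietin receptor TIE2, had the largest difference of the 7 between allo-WT and syngeneic mice. Normalized counts were 1079, 642 and 867 in syngeneic mice 1 to 3, 223, 359 and 257 in allo-WT mice 1 to 3, and 307, 232, 489.7, 241 and 592 in allo-MCd mice 1 to 5. Neither the allo-WT nor the allo-MCd mice reached the lowest syngeneic mouse, while the ranges of the allo-WT and allo-MCd mice overlapped. Means were 862 ± 219 (SD, n = 3), 279.8 ± 71.0 (SD, n = 3) and 372 ± 161 (SD, n = 5). The allo-WT mice had less Tek than the syngeneic mice, by a log2 difference of -1.62 ± 0.37 (SE, limma adjusted p = 0.00488), with an exact permutation p of 0.1, the smallest that 3 mice against 3 can give. Under median scaling it was -1.86 (limma adjusted p = 0.000773), and both calls held without each mouse in turn. In allo-MCd against syngeneic mice Tek was lower by -1.28 ± 0.33 (SE, limma adjusted p = 0.0100, exact permutation p = 0.0357), a call that did not hold without mouse 1 of the syngeneic group (-1.11, limma adjusted p = 0.0557) or under median scaling (-0.63, limma adjusted p = 0.111).

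Between allo-MCd and allo-WT mice the Tek difference was 0.34 on the deposited scale (limma adjusted p = 0.400). Under median scaling the values were 148, 282 and 185 in allo-WT mice 1 to 3, and 479.9, 339, 599.7, 354 and 625 in allo-MCd mice 1 to 5. The groups were then apart, with a difference of 1.23 ± 0.28 (SE, limma adjusted p = 0.00221, exact permutation p = 0.0179), which was called without each mouse in turn and was lowest, at 1.02, without allo-WT mouse 1.

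Cdh5, the gene of VE-cadherin, had 462, 313 and 351 normalized counts in syngeneic mice 1 to 3, 169.8 (mouse 1), 122 and 128 in allo-WT mice, and 165, 159, 457, 156 and 265 in allo-MCd mice 1 to 5. All allo-WT mice lay well below all syngeneic mice, and among the allo-MCd mice a trio sat near the highest allo-WT mouse while mouse 3 reached the syngeneic level. Means were 375 ± 77.8 (SD, n = 3), 139.8 ± 26.2 (SD, n = 3) and 240.2 ± 129 (SD, n = 5). The allo-WT level of Cdh5 was below the syngeneic one by a log2 difference of -1.41 ± 0.39 (SE, limma adjusted p = 0.0119, exact permutation p = 0.1). The methods' test, which compares the 3 groups with Tukey's comparison on the deposited values, gave a Tukey p of 0.0485. After an added adjustment over all genes, which the methods do not describe, this difference was not called (adjusted p = 0.114). Without syngeneic mouse 1 the value was -1.25 (limma adjusted p = 0.0501), just past the threshold, and under median scaling it was -1.65 (limma adjusted p = 0.00183) and called without each mouse in turn. Against syngeneic mice the allo-MCd difference was -0.76 (limma adjusted p = 0.0933), and -1.03 (limma adjusted p = 0.0132) without allo-MCd mouse 3. Under median scaling these differences were -0.10 (limma adjusted p = 0.817) and -0.34 (limma adjusted p = 0.242).

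Between allo-MCd and allo-WT mice the Cdh5 difference was 0.65 ± 0.35 (SE, limma adjusted p = 0.122), with overlapping groups. Under median scaling Cdh5 had 112, 95.6 and 91.8 in allo-WT mice 1 to 3 and 258, 232, 559, 229.8 and 279.7 in allo-MCd mice 1 to 5. All 5 allo-MCd mice were then above all allo-WT mice, with mouse 3 far above the rest. The difference was 1.55 ± 0.29 (SE, limma adjusted p = 0.000564, exact permutation p = 0.0179), and 1.31 (limma adjusted p = 0.000331) without allo-MCd mouse 3.

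Allo-MCd mice 3 and 5 were the highest pair of the 5 for all 7 genes on the deposited scale, as they were for 42.8% of all genes tested. Under median scaling they were the highest pair for 4 of the 7 genes (Angpt1, Angpt2, Cdh5 and Tek) and for 13.4% of all genes tested, whereas Vegfa was highest in mice 1 and 2. Over all 11 mice, on the median-scaled log2 values, Tek and Vegfc were the most alike pair of members (r = 0.89), and within groups, after each group's mean was taken off, r was 0.65. Cdh5 was most like Tek among the members (r = 0.86, and 0.50 within groups). Among all genes tested, Cdh5 was most like Enpep, which encodes aminopeptidase A (r = 0.96, and 0.93 within groups), and Ptprb, the gene of the endothelial phosphatase VE-PTP (0.96 and 0.79). Vegfa was most like the transcription factor gene Klf4 (r = 0.85, and 0.74 within groups), Pdgfb (0.85 and 0.85) and the muscle filament gene Des (0.85 and 0.70). These correlations are descriptions over 11 mice that share the group differences and the scaling.

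The balance between ligands was taken within each mouse, where the scaling between mice cancels. The log2 ratio of Angpt2 over Angpt1 was 0.99, 0.60 and 1.01 in syngeneic mice 1 to 3, 1.04, 0.84 and 1.11 in allo-WT mice 1 to 3, and 0.97, 0.77, 0.032, 0.24 and 0.088 in allo-MCd mice 1 to 5. Allo-MCd mice 3, 4 and 5 lay below all mice of the other groups and allo-MCd mice 1 and 2 lay among them. The allo-MCd mean was lower than that of allo-WT mice by -0.58 and of syngeneic mice by -0.44, with exact permutation p-values of 0.0536 and 0.161, and neither passed after adjustment over the 6 ratio comparisons (adjusted p = 0.321 for both). For Vegfa over Vegfc syngeneic mice had a mean log2 ratio of 1.88 ± 0.31 (SD, n = 3), allo-WT mice of 1.97 ± 0.66 (SD, n = 3) and allo-MCd mice of 2.29 ± 0.31 (SD, n = 5). These groups overlapped, and the exact permutation p-values were between 0.107 and 0.9. A difference between 2 genes' probes enters each ratio, so only differences between mice are read from it.

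**Figure D3:**
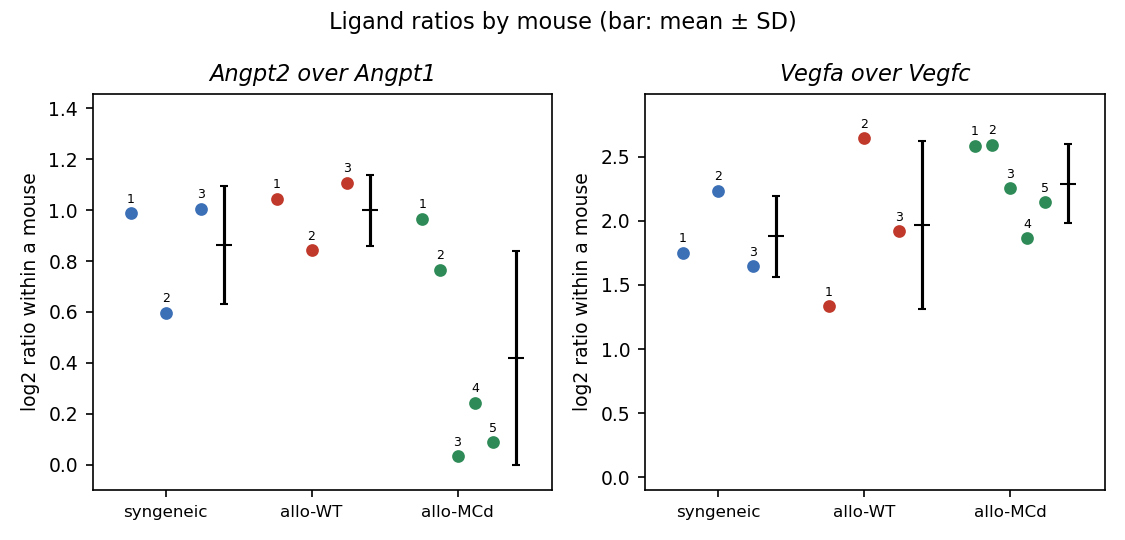
Log2 ratio of Angpt2 over Angpt1 and of Vegfa over Vegfc within each mouse (y axis), with the mouse number above each point and the mean ± SD as a black bar, for 3 syngeneic, 3 allo-WT and 5 allo-MCd mice. In allo-MCd mice 3, 4 and 5 the first ratio is near 0, below all 6 other-group mice, and the second ratio overlaps between groups.

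Of 23 further genes of blood and lymphatic endothelium listed, 9 were on the panel. Whole skin was measured, so whether endothelium or other skin cells held the RNA of these 9 genes was not tested. In allo-WT against syngeneic mice 4 of the 9 were called lower and 1 higher on the deposited scale, with a median of -1.02, against 14.9% and 28.3% of all genes and a median of 0.21. Ptprb, whose product acts on TIE2 and VE-cadherin, was lower at -1.85 (limma adjusted p = 0.00327), and so was Cd34, a surface protein of small vessels and of progenitor cells, at -1.38 (limma adjusted p = 0.00282). Vcam1, the adhesion molecule that cytokine-activated endothelium shows to leukocytes, was higher at 2.31 (limma adjusted p = 0.000601). Under median scaling the counts were 5 lower and 1 higher (26.9% and 24.0% of all genes), with a median of -1.26 against -0.03, and all 3 genes remained called, at -2.08, -1.62 and 2.07 in the same order.

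Between allo-MCd and allo-WT mice, 3 of these 9 genes were called lower and 1 higher on the deposited scale, with a median of -0.22, against 50% and 10.9% of all genes and a median of -0.72. Under median scaling 1 was called lower and 4 higher, with a median of 0.67, against 29.5% and 37.2% of all genes and a median of 0.17. Vcam1 was lower on both scales, at -3.03 (limma adjusted p = 1.23e-05) and -2.14 (limma adjusted p = 0.000166). It had 381 to 885 normalized counts in allo-WT mice, 92.0 to 119.7 in syngeneic mice and 38.0 to 82.9 in allo-MCd mice, with no overlap between the groups on that scale. Allo-MCd and syngeneic mice did not differ by call on either scale, at -0.72 (limma adjusted p = 0.0957) as deposited and -0.067 (limma adjusted p = 0.895) under median scaling, where their ranges of 59.4 to 107.9 and 79.3 to 101.2 overlapped. The leukocyte adhesion genes Sele (E-selectin) and Icam1 were also lower on the deposited scale, at -1.20 (limma adjusted p = 0.0249) and -0.95 (limma adjusted p = 0.00235). Sele had 157.2 normalized counts in allo-WT mouse 1 and 49.8 and 54.9 in the others of that group, against 19.1 to 53.0 in allo-MCd mice, so the groups overlapped. Without allo-WT mouse 1 its difference was -0.68 (limma adjusted p = 0.151), and leaving out either of allo-MCd mice 1 and 4 also ended its call, at limma adjusted p-values of 0.0516 and 0.0541. Neither call held under median scaling, where Sele was at -0.32 (limma adjusted p = 0.438) and Icam1 at -0.057 (limma adjusted p = 0.817), and Selp (P-selectin) was called on neither scale, at -0.35 and 0.54. Ptprb was called higher on the deposited scale, at 0.90 (limma adjusted p = 0.0437), a call that was lost when any of 8 of the 11 mice was left out, at 0.68 to 1.04 (limma adjusted p = 0.0507 to 0.157). Under median scaling it was higher at 1.79 (limma adjusted p = 0.000271) and Cav1, the gene of the membrane protein caveolin-1, at 1.26 (limma adjusted p = 0.00150). Between allo-MCd and syngeneic mice 5 of the 9 were called lower and none higher on the deposited scale (36.9% and 4.60% of all genes), with a median of -0.95 against -0.59, led by Cd34 at -1.40, Thbd (thrombomodulin) at -1.31 and the sphingosine receptor gene S1pr1 at -1.24. S1pr1 was no longer called when syngeneic mouse 1 was left out, at -0.90 (limma adjusted p = 0.117), or mouse 3 of that group, at -1.17 (limma adjusted p = 0.0758). Cd34 alone remained called under median scaling, at -0.75 (limma adjusted p = 0.0183), where 11.5% of all genes were called lower, and this call was lost without the same mice (-0.68 and -0.75, limma adjusted p = 0.0798 and 0.0623).

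**Figure D4:**
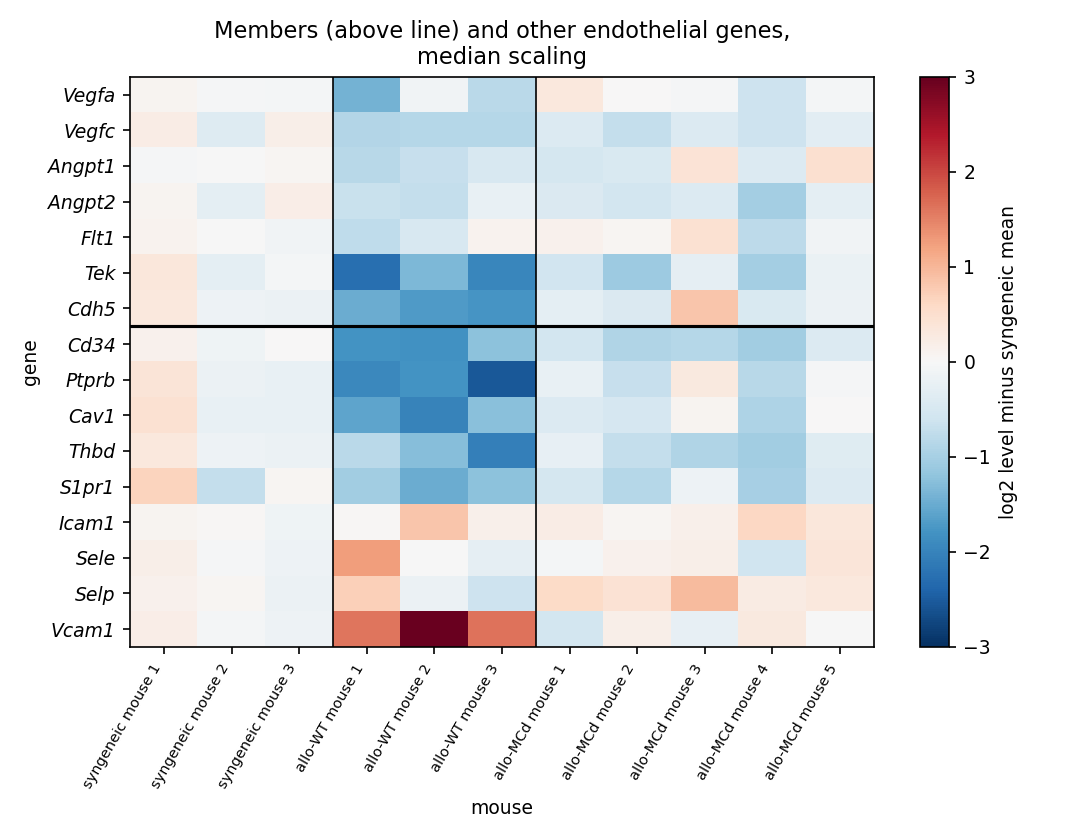
Log2 level of each gene in each mouse minus the mean of the 3 syngeneic mice, under median scaling, by color, for the 7 genes above the line and 9 other endothelial genes below it. In the 3 allo-WT mice Tek, Cdh5, Cd34, Ptprb and Cav1 are blue (lower) and Vcam1 is red (higher), and the 5 allo-MCd mice are paler.

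Of 43 other regulators of vessel growth listed, 20 were on the panel. Between allo-WT and syngeneic mice 4 were called higher and 6 lower on the deposited scale, with a median of -0.13, against 28.3% and 14.9% of all genes and a median of 0.21. The largest on that scale were the growth factor genes Egf at -2.17 (limma adjusted p = 0.00138), Hgf at 1.66 (limma adjusted p = 0.00441) and Fgf2 at -1.58 (limma adjusted p = 0.0119), which without syngeneic mouse 1 was at -1.21 (limma adjusted p = 0.0583). Under median scaling 4 were called higher and 9 lower, with a median of -0.37, against 24.0% and 26.9% of all genes and a median of -0.03. The largest were then Egf at -2.41, Fgf2 at -1.82 and Cyr61, the gene of a matricellular protein, at -1.74, with limma adjusted p-values from 0.00028 to 0.00349. Between allo-MCd and allo-WT mice 4 were called higher and 7 lower on the deposited scale (10.9% and 50% of all genes), with a median of -0.31 against -0.72 over all genes, led by Plaur, the urokinase receptor gene, at -2.66, Hgf at -2.27 and the metalloproteinase gene Mmp9 at -1.86, with limma adjusted p-values from 3.01e-05 to 0.00166. Under median scaling this split became 10 higher and 3 lower (37.2% and 29.5% of all genes), with a median of 0.59 against 0.17, and with Egf higher at 2.05 and Ctgf, the gene of connective tissue growth factor, at 2.07, and Plaur lower at -1.77. Between allo-MCd and syngeneic mice 2 were called higher and 7 lower on the deposited scale (4.60% and 36.9% of all genes), with a median of -0.58 against -0.59, led by Fgf2 at -1.50, Mmp9 at -1.38 and the pericyte receptor gene Pdgfrb at -1.36. Without syngeneic mouse 1 these 3 calls were lost, at -1.12, -1.18 and -1.11 (limma adjusted p = 0.0619, 0.0816 and 0.102), and leaving out syngeneic mouse 3 also ended that of Pdgfrb (limma adjusted p = 0.0573). Under median scaling 5 were called higher and none lower (16.8% and 11.5% of all genes), with a median of 0.077 against 0.06, led by Edn1 (endothelin-1) at 1.62, the Notch ligand gene Jag1 at 1.49 and Cxcr4 at 1.29.

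The marker sums of other skin cells were not tested, and some kept the groups apart while others overlapped. Of the 8 endothelial markers listed only Cdh5 and Tek were on the panel, so the label rests otherwise on the 9 further endothelial genes described above, which did not move as 1 group. In allo-WT against syngeneic mice Cd34, Ptprb, S1pr1, Cav1 and Thbd had differences below 0 on both scales, with S1pr1 not called as deposited (limma adjusted p = 0.0672), while Vcam1, Icam1 and Sele had differences above 0 on both, of which only Vcam1 was called. Selp was at 0.20 as deposited and -0.033 under median scaling. The 7 macrophage markers summed to between 25192 and 30750.5 normalized counts in syngeneic mice, 49311 and 69246 in allo-WT mice, and 7688 and 13776 in allo-MCd mice. The 4 neutrophil markers summed to 463 to 696, 3876 to 133288 and 520 to 1142 in the same order. The 2 pericyte and smooth muscle markers found of 6, Pdgfrb and Des, summed to 8296 to 13215 in syngeneic mice, 2144 to 5896 in allo-WT mice and 2895 to 9679 in allo-MCd mice, where the ranges of the allo-WT and allo-MCd mice overlapped. The 3 fibroblast markers found of 5 summed to 83633 to 179631, 11520 to 132287 and 34482 to 81653, and Cdh1, the 1 keratinocyte marker found of 5, had 2216 to 4748, 3955 to 6371 and 4652 to 5187. The 7 mast cell markers summed to 3851 to 9348, 2397 to 14802 and 139 to 656, with Kit and Ms4a2 above background in no allo-MCd mouse. All ranges up to here are on the deposited scale. Under median scaling Cdh1 stood at 1874 to 4328, 2843 to 4217 and 4922 to 7819.7, so that all allo-MCd mice lay above the other groups, and the fibroblast sums of allo-MCd mice (46074 to 86251) overlapped those of syngeneic mice (76230.0 to 151868), which they did not as deposited. The median-scaled macrophage sums were 21799 to 25998, 38701 to 46241 and 12027 to 16796 in the same order, apart as on the deposited scale, and the pericyte and smooth muscle sums were 7014 to 12045, 1514 to 4627 and 4255 to 11853. The listed markers of lymphatic endothelium, T cells and platelets are not analysed here. The part of these cell types in the differences of the members was not tested.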

How the data were processed

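RNA from whole skin (100 ng per mouse) was counted on the NanoString nCounter system with the Myeloid Innate Immunity panel. The authors deposited linear signal values, which are molecule counts after normalization in nSolver. The software version and the housekeeping genes used are not given in the sources used here. The 20 housekeeping genes listed for this work had a geometric mean of 1104 in 10 mice and 1089 in allo-MCd mouse 5. Between 99.87% and 100% of values in a mouse were whole multiples, within 0.011, of 1 factor, and counts were recovered with it. The labels name Trizol for the extraction and the methods Ribozol. The 11 mice are separate animals, and pairs within a group differed beyond sampling noise (chi-square per degree of freedom 35.2 to 409.6).

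Control probes (6 positive, 8 negative) and housekeeping genes were set aside, and of 734 genes the 696 that reached a value of 20 in 3 or more mice entered the tests. All 3 groups entered 1 limma fit (3.58.1, R 4.3.3) with an intensity trend and no covariate, tested on simulated data. Ratios were taken on log2(value + 1), with two-sided exact permutation tests in R. Python 3.11.15, numpy 2.4.6, pandas 2.3.3 and matplotlib 3.10.9 were used. Alternatives were other pseudocounts, filters, scalings and variance models, only the groups compared, the methods' test (a 3-group test with Tukey's comparison, adjusted over all genes), a block for the mouse number, leaving out each mouse (for the further lists, chosen after seeing the data), and voom on the recovered counts. The paper describes no adjustment of its test over genes, so that step was added here. The members, gene lists and markers were chosen with earlier results of these data known. All members are reported, and of each further list the 3 called genes with the largest difference in each comparison and scale. A gene that the rule on likeness also named is not reported here.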

Additional observations from a re-analysis of the deposited data

Results flagged for a closer look

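Cdh5 in allo-MCd mouse 3 stood at 559 under median scaling, apart from the other 4 mice of its group, which had 229.8 to 279.7. Its gap to the nearest mouse was 0.849 of the group's whole range, above the critical share of 0.710 for 5 mice. On the deposited scale the gap share of the same mouse was 0.639. Of the 16 such groups of 5 values examined, this was the only 1 past the critical share, and chance passes about 1 in 20.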

How the results depend on the processing

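The scaling between mice moved most. On the deposited scale the members called lower were 2 of 7 between allo-WT and syngeneic mice, 1 in the comparison of allo-MCd with allo-WT mice, and 4 in that of allo-MCd with syngeneic mice. With quantile normalization they were 4, 0 and 0, and with median scaling the last 2 were also 0 and 0. Members called higher between allo-MCd and allo-WT were 0 as deposited and 3 under both median scaling (Cdh5, Tek and Vegfa) and quantile normalization (Cdh5, Tek and Vegfc, with Vegfa at an adjusted p of 0.0596). By the methods' test with an added adjustment over all genes, 1, 0 and 1 were called lower. Cdh5 was lost in the first, Angpt2 in the second, and Angpt2, Tek and Vegfa in the third (adjusted p = 0.0503, 0.0565 and 0.145). Before that adjustment their Tukey p-values were 0.0485, 0.0485, 0.00586, 0.00796 and 0.0424 in the same order, all below 0.05. Without each mouse in turn the limma counts on the deposited scale ran from 1 (without syngeneic mouse 1) to 3 (without syngeneic mouse 2) in the first. In the second they ran from 0 (without allo-WT mouse 3) to 2 (without allo-MCd mouse 5), and in the third from 2 (without syngeneic mouse 1) to 5. Lower calls over all 696 genes moved too. The first had 104 with all mice, and 69 and 100 in the fits named. For the second these were 348, 328 and 361. The third had 257, and 166 without syngeneic mouse 1. Under median scaling with each mouse left out, chosen after seeing the data, members called lower between allo-MCd and syngeneic ran from 0 to 1.

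Differences of allo-MCd from allo-WT that turned above 0 were, under median scaling and quantile normalization in that order, Angpt1 at 0.57 and 0.66, Flt1 at 0.33 and 0.42, Vegfa at 0.70 and 0.64 and Vegfc at 0.37 and 0.52. Angpt2 was at 0.11 under quantile normalization, and with each mouse left out Vegfa ran from -0.45 (without allo-WT mouse 1) to 0.082 (without allo-WT mouse 2). The difference in Vegfa over Vegfc between allo-WT and syngeneic mice was 0.087, and ran from -0.25 (without allo-WT mouse 2) to 0.40 with each mouse left out.

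Deviations from the group mean in same-numbered mice had r from -0.11 to 0.21 over 9 pairs, 3 of them above 0.1. Differently numbered mice were not compared, so a pairing by number was neither shown nor excluded. With the mouse number as a block, Angpt1 was called between allo-MCd and syngeneic mice (-0.92, limma adjusted p = 0.0484) and Vegfa was not (-0.63, limma adjusted p = 0.107), and no other call of a member changed.

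Other pseudocounts, filters and variance models, and voom on the recovered counts, added after seeing the data, changed the call of no member but Vegfa between allo-MCd and syngeneic mice, which was lost with no filter, without the trend and when rescaled to the housekeeping genes. The 2 planned quasi-likelihood count tests were not run, since the values are normalized, and Flt1 over Kdr could not be formed. Over all genes, the methods' test with the added adjustment called 136 higher and 57 lower between allo-WT and syngeneic mice, against 197 and 104 by limma. For allo-MCd against allo-WT it called 44 and 258 where limma called 76 and 348. For allo-MCd against syngeneic it called 14 and 65 where limma called 32 and 257. In the same order these counts were 160 and 209, 259 and 204, and 93 and 99 with quantile normalization, and 167 and 187, 259 and 205, and 117 and 80 with median scaling. Depth limits Angpt1 most, at 41 counts in 1 mouse.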
